A study of Mus musculus with 12 samples.

Results

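The exposure by surgery interaction is, for each gene, the response of the heart to pressure overload after prenatal diesel exhaust minus the same response after prenatal filtered air. It was computed over all 12 libraries of the study and for each of the 13626 genes with enough counts, out of 27179 genes counted. A positive value means that a gene moved further upward, or less far downward, with pressure overload in the diesel-exposed animals. Values are log2 differences ± standard error (SE), with n = 3 hearts in each group.

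Pregnant mice breathed filtered air (FA) or diesel exhaust (DE) from E0.5 until E17.5 (embryonic days), and all offspring were then raised in filtered air. The offspring had an echocardiogram at 11 weeks of age and surgery at 12 weeks, and the hearts were frozen at 15 weeks. Surgery was either transverse aortic constriction (TAC), calibrated with a 27 gauge needle, or a sham operation. The 4 groups are therefore FA sham, FA TAC, DE sham and DE TAC, each with 3 hearts from separately numbered animals. No strain, genotype, sex, litter or sequencing run is given in the sources used here, and 4 samples shared each run. Since exposure was given to the mother, hearts of 1 group may share a litter, and p-values measure only the spread between these samples.

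TAC narrows the aortic arch, so that the left ventricle must pump against a raised pressure. Cardiomyocytes enlarge and return to genes of the fetal heart, among them the natriuretic peptides, skeletal alpha-actin and the beta myosin heavy chain. Fibroblasts lay down collagen and other matrix, and genes for burning fatty acids are commonly lowered. The interaction asks whether this response differed with what the animal's mother had breathed.

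The libraries held between 5534685 and 13265816 counts each, and a count of 3, taken as the floor, corresponded to 0.218 to 0.501 CPM (counts relative to library size). All 16 ventricular cardiomyocyte markers were measured, at a summed level of 49686 to 94129 CPM, whereas none of 10 lung and airway markers had enough counts to be tested. Y-linked genes had counts in 12 of 12 libraries, with Xist at 0 to 2.92 CPM. FA sham replicate 1 stood apart on the first principal component and had the fewest genes with a count, 15224, at a total of 10403385. DE sham replicate 2 stood apart on the second and had the lowest mitochondrial share, 18.3% against up to 32.4% elsewhere. Both are sham libraries and enter the interaction directly, so the main counts were also made without them. FA TAC replicate 1 lay at -5.68 on the first principal component, while the other TAC hearts lay from 17.3 to 39.1. The sham hearts lay from -61.5 to -0.31 there. This TAC library was left out only on its own, as each library was in turn.

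No gene passed the interaction threshold. By edgeR's quasi-likelihood test, 0 of 13626 genes (0.0%) had an adjusted p under 0.05, and the smallest adjusted p was 0.336, for Ptprf. An unadjusted p under 0.05 was found for 327 genes (2.4%), of which 179 (1.31%) had a positive and 148 (1.09%) a negative estimate. Evenly spread p-values would put a share of 0.05 of all genes there, so 2.4% is below that share and no excess. DESeq2 called 1 gene of 13623 (0.00734%), again Ptprf, with 384 at an unadjusted p under 0.05. The voom method called 0 (355 unadjusted), and voom with sample weights called 0 (398 unadjusted). Leaving out both sham libraries that stood apart gave 0 called by edgeR and 434 unadjusted.

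The p-values of the interaction were spread differently from those of its component responses. The lowest bin, from 0 to 0.05, held 327 interaction p-values, against 782 in the highest bin, from 0.95 up. The same lowest bin held 1511 p-values (11.1%) for TAC against sham in filtered air and 2170 (15.9%) after diesel exhaust. After adjustment, 113 genes (0.829%) passed in filtered air, 83 of them higher (0.609%) and 30 lower (0.22%) with TAC. After diesel exhaust 442 (3.24%) passed, 239 higher (1.75%) and 203 lower (1.49%). Without both sham libraries that stood apart these counts were 76 and 461. The count in filtered air was 39 without FA TAC replicate 2, 43 without FA sham replicate 3, 56 without FA sham replicate 1 and 69 without FA sham replicate 2. The count after diesel exhaust was 188, 209 and 265 without DE TAC replicates 3, 2 and 1, and 223 and 264 without DE sham replicates 1 and 3. That 442 is above 113 is not itself a test of a difference between exposures, which is what the interaction tests.

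**Figure D1:**
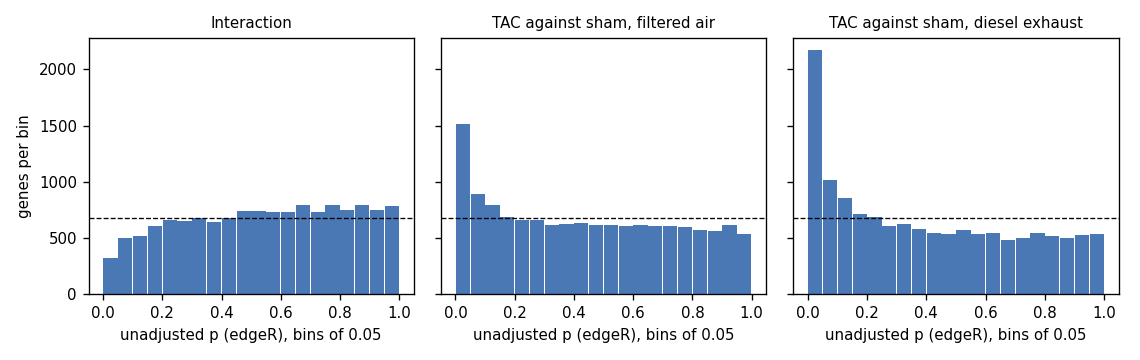
Distribution of unadjusted p-values from edgeR over 13626 genes in bins of 0.05, for the interaction and for TAC against sham in each exposure. The lowest bin held 327 genes for the interaction, 1511 for the filtered air response and 2170 for the diesel exhaust response.

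The precision of the interaction was that of a difference of differences from 3 hearts a group. Its median SE was 0.42, against 0.29 for each response. The 95% confidence interval reached a median of 0.86 to either side of the estimate, a factor of 1.82. In genes with a mean of 100 CPM or more (925 genes) the median SE was 0.26, and in 83.9% of them the whole interval lay within a 2-fold difference in either direction. In genes from 1 to 10 CPM (5633 genes) the median SE was 0.65, and only 3% had an interval within 2-fold. Over all genes 5341 (39.2%) had such an interval. The intervals of the other genes reached past 2-fold on at least 1 side, and some lay wholly beyond it, for example those of Ptprf, Pamr1, Msln, Cadm1, Slc52a3 and Kcna2. These genes are among those with the smallest interaction p, so intervals far from 0 follow from that choice. The intervals are not adjusted for the number of genes, and none of these genes passed the adjusted threshold by edgeR.

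The 2 TAC responses share no library, so they could be set side by side across genes. Over all 13626 genes the log2 responses had a Pearson correlation of 0.52 and a Spearman correlation of 0.48, as a description across genes, which are not independent replicates. The sign was the same in 9189 genes (67.4%). In the 7630 genes with a mean of at least 10 CPM the Pearson correlation was 0.74. All 95 genes called in both exposures moved the same way, with a median absolute response of 1.32 in filtered air and 1.57 after diesel exhaust, and the diesel response was the greater in 71 of them. In 47 of the 95 the interval of the interaction lay within 2-fold.

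Genes called in 1 exposure only mostly had an estimate of the same sign in the other. All 18 genes called in filtered air and not after diesel exhaust had the same sign, at a median absolute response of 1.97 in filtered air and 0.78 after diesel exhaust. Of the 347 genes called after diesel exhaust and not in filtered air, 342 (98.6%) had the same sign, at medians of 0.60 in filtered air and 1.02 after diesel exhaust. Being called in 1 exposure favours a greater response there, so these differences in size describe the choice of genes and test nothing. Of the 347 genes, 46 had an unadjusted interaction p under 0.05, and of the 18 genes 6 had one, beside 2.4% of all genes. The same choice of genes favours a low p, so nothing is read from these counts.

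**Figure D2:**
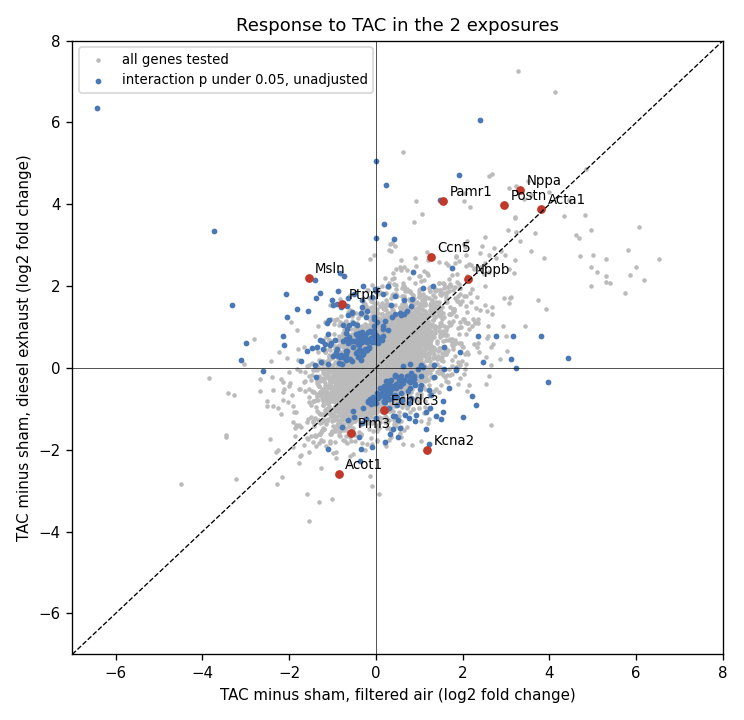
TAC against sham as a log2 fold change in filtered air (horizontal) and after diesel exhaust (vertical), 1 point for each of 13626 genes, with the line of equal response dashed. Blue points have an unadjusted interaction p under 0.05 and none passed the adjusted threshold. Nppb and Acta1 lie near the dashed line, while Ptprf and Msln lie where the responses have opposite signs.

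Few genes had TAC and sham libraries fully separated in opposite order. In 13 genes (0.0954%) every TAC library lay below every sham library in filtered air and above every sham library after diesel exhaust. The reverse held in 12 genes (0.0881%). For comparison, TAC and sham libraries were fully separated in the same direction in both exposures in 832 genes (6.11%). The 25 crossed genes included Ptprf, Cadm1 and Arhgap42, with positive estimates, and Enho, Magoh, Sumf2 and Gorasp1, with negative ones.

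Ptprf encodes LAR, a receptor protein tyrosine phosphatase of cell adhesion sites (chromosome 4, 118208213 to 118291405, GRCm38). It stood at 8.04, 7.34 and 7.30 CPM in FA sham hearts and at 3.57, 4.64 and 5.02 CPM in FA TAC hearts. It stood at 3.19, 5.52 and 4.76 CPM in DE sham hearts and at 11.5, 16.1 and 11.7 CPM in DE TAC hearts. The libraries of sham and TAC did not overlap in either exposure, and the order was reversed between exposures. With TAC the log2 difference was -0.78 ± 0.31 in filtered air (edgeR adjusted p = 0.328) and 1.55 ± 0.31 after diesel exhaust (adjusted p = 0.00587).

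The interaction of Ptprf was 2.33 ± 0.44, with a 95% interval of 1.42 to 3.23 and an unadjusted p of 2.47e-05 by edgeR. Its adjusted p was 0.336 by edgeR, 0.00283 by DESeq2, 0.587 by voom and 0.209 by voom with sample weights. Over all 22 alternatives the estimate lay between 2.12 and 2.50, and the adjusted p between 0.00283 and 1.0. Written the other way, DE hearts stood below FA hearts by 0.76 ± 0.31 in sham animals and above them by 1.57 ± 0.30 in TAC animals. The gene overlaps Mir7226 and the predicted genes Gm40235 and Gm52705, and since the strand setting of the counting is not given, their reads cannot be told apart.

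Estimates of the other receptor phosphatases were smaller than that of Ptprf. Of 22 genes on that list, 15 were tested, and 14 of them had a positive estimate with a median of 0.36, beside a median of -0.02 over all genes tested. The list's median ran from 0.15 to 0.38 over the 23 settings tried, lowest without DE sham replicate 2. Ptprf alone had an unadjusted p under 0.05, beside 2.4% of all genes. Ptprs and Ptprd, of the same LAR subfamily, stood at 0.09 ± 0.29 and 0.36 ± 0.42. Of 19 tested liprins and other partners of LAR-type phosphatases, 10 had a positive estimate, with a median of 0.03. The lowest p there was that of the liprin gene Ppfia4, at -1.53 ± 0.70 (unadjusted p = 0.0389, edgeR).

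Pamr1, a secreted protein with CUB, EGF-like and sushi domains (chromosome 2, 102549939 to 102643041, GRCm38), had the next smallest p. It stood at 2.96, 2.20 and 3.73 CPM in FA sham hearts and at 5.84, 13.3 and 6.93 CPM in FA TAC hearts. It stood at 1.02, 1.17 and 0.721 CPM in DE sham hearts and at 17.4, 17.2 and 15.5 CPM in DE TAC hearts. The response had the same direction in both exposures, and the DE groups lay outside the FA groups on either side. It rose by 1.55 ± 0.35 in filtered air (edgeR adjusted p = 0.0366) and by 4.09 ± 0.40 after diesel exhaust (adjusted p = 4.17e-06). The interaction was 2.54 ± 0.54 (95% interval 1.43 to 3.66, unadjusted p = 0.000108, adjusted p = 0.739). Without FA TAC replicate 2, the library at 13.3 CPM, it was 2.98 with an adjusted p of 0.198.

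Of the 20 genes with the smallest p in either direction and a mean of at least 1 CPM, Ptprf and Pamr1 had adjusted p-values under 0.99 and the other 18 did not. These genes were ordered by the p of the interaction itself, so their estimates are a description. Each kept its sign in all 22 alternatives, or in the 21 that tested it where a count minimum of 30 removed it. Sycp3 overlaps Chpt1, and Enho overlaps Dnaic1. Pim3, Kcna2, Echdc3, Cadm1, Pcdh1 and 2810410L24Rik overlap, in that order, Gm33049, Gm38712, A230108P19Rik, Gm10677, Gm52328 and Gm9734. As with Ptprf, reads of the overlapping parts cannot be told apart.

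**Figure D3:**
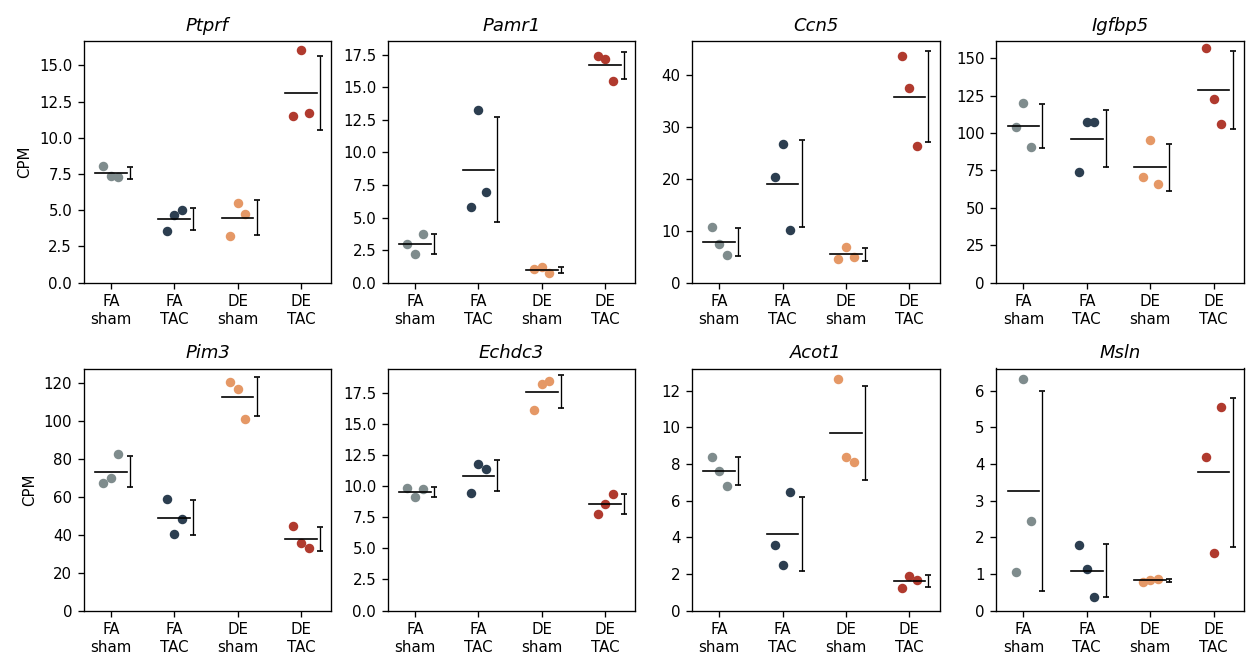
Level in CPM in each of the 12 hearts for 8 genes with the smallest interaction p-values or a cardiac role, with a line at the group mean and a bar of 1 standard deviation beside it. In Ptprf the 3 DE TAC hearts stand at 11.5 to 16.1 CPM and all other hearts at 8.04 or below, and in Echdc3 the 3 DE sham hearts stand apart at 16.1 to 18.5 CPM.

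Ccn5, a matricellular protein of fibroblasts and smooth muscle, stood at 10.7, 7.34 and 5.35 CPM in FA sham, 20.4, 26.7 and 10.04 in FA TAC, 4.60, 6.85 and 4.91 in DE sham and 43.6, 37.4 and 26.3 CPM in DE TAC. Its sham and TAC hearts overlapped in filtered air and were separate after diesel exhaust. The interaction was 1.45 ± 0.47 (0.48 to 2.43, unadjusted p = 0.00555), from 1.27 ± 0.33 in filtered air (edgeR adjusted p = 0.082) and 2.72 ± 0.34 after diesel exhaust (adjusted p = 9.81e-05). Igfbp5, which binds insulin-like growth factors, stood at 104, 119.8 and 90.5 CPM in FA sham, 74.1, 107 and 107 in FA TAC, 70.3, 95.3 and 66.2 in DE sham and 157, 123 and 106 CPM in DE TAC. The highest 2 values were in DE TAC hearts and the lowest 2 in DE sham hearts, and the FA groups overlapped. The interaction of Igfbp5 was 0.86 ± 0.28 (0.28 to 1.44, unadjusted p = 0.00548, edgeR).

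The adhesion molecule gene Cadm1 stood at 6.88, 2.35 and 3.24 CPM in FA sham, 1.31, 1.63 and 1.31 in FA TAC, 0.383, 1.17 and 1.01 in DE sham and 2.90, 2.23 and 1.49 CPM in DE TAC. Sham and TAC hearts were separate in both exposures and in opposite order, at 0.383 to 6.88 CPM, with DE sham replicate 1 at the floor. Its interaction was 2.95 ± 0.84, and it was 2.35 without FA sham replicate 1, the library at 6.88 CPM. Pcdh1, a protocadherin of cell junctions, had an interaction of 1.03 ± 0.34. Ttyh2, a member of the tweety family of membrane proteins, had 1.62 ± 0.47, and the riboflavin transporter gene Slc52a3 had 3.30 ± 1.00. Slc52a3 stood near the floor, at 0.476 to 0.627 CPM in FA TAC and 0.383 to 1.01 CPM in DE sham. Its DE sham replicate 1 was at the floor. Sycp3, a protein of the meiotic chromosome axis, stood at 1.62 ± 0.53, and without both sham libraries that stood apart its unadjusted p was 0.0517.

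Msln, mesothelin of the outer lining of the heart, had the largest positive estimate of the 20 genes, 3.74 ± 0.99 (1.69 to 5.80, unadjusted p = 0.00105, edgeR). It stood at 1.06, 6.31 and 2.43 CPM in FA sham, 1.79, 1.13 and 0.358 in FA TAC, 0.766, 0.836 and 0.866 in DE sham and 4.21, 1.56 and 5.57 CPM in DE TAC. The FA sham hearts spread widely, and they overlapped FA TAC through FA sham replicate 1 only. FA TAC replicate 3, at 0.358 CPM, was at the floor. Without FA sham replicate 2, at 6.31 CPM, the estimate was 2.81. Of 15 markers of mesothelium and epicardium 10 had enough counts to be tested, 9 of them had a positive estimate, and their median was 1.14. Msln was the 1 marker of the 10 with an unadjusted p under 0.05, beside 2.4% of all genes, and 0 passed the adjusted threshold. The defining markers Krt19, Krt8, Muc16, Bnc1 and Rspo1 had too few counts for a test. Wt1, the epicardial transcription factor, stood at 0.07 ± 0.85, Upk3b at 1.28 ± 1.00 and Aldh1a2, which makes retinoic acid, at -1.02 ± 0.64.

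The summed level of these markers was 93.7 to 216 CPM in FA sham, 101 to 161 in FA TAC, 132 to 317 in DE sham and 204 to 263 CPM in DE TAC, with the complement gene C3 at a mean of 157 CPM making up most of it. Over the 23 settings the median estimate lay between 0.39, without FA sham replicate 2, and 1.54, and it was 0.54 without DE TAC replicate 1 and 0.73 without DE TAC replicate 3. The amount of this tissue in each sample, and its part in the value for Msln, was not tested. In bulk tissue fewer cells of a type and less RNA per cell cannot be told apart.

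Of the negative estimates among the 20 genes, that of Pim3 had the smallest p. Pim3, a serine/threonine kinase of growth and survival signaling, stood at 67.3, 69.7 and 82.7 CPM in FA sham, 58.6, 40.1 and 48.3 in FA TAC, 120.4, 117 and 101 in DE sham and 44.7, 35.4 and 32.9 CPM in DE TAC. All DE sham hearts lay above all FA sham hearts, while the TAC groups overlapped. Its interaction was -1.0 ± 0.25 (-1.53 to -0.47, unadjusted p = 0.000731), from -0.58 ± 0.18 in filtered air (edgeR adjusted p = 0.157) and -1.58 ± 0.18 after diesel exhaust (adjusted p = 2.18e-05).

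Echdc3, an enoyl-CoA hydratase domain protein of mitochondria, stood at 9.84, 9.10 and 9.73 CPM in FA sham, 9.41, 11.8 and 11.4 in FA TAC, 16.1, 18.2 and 18.5 in DE sham and 7.76, 8.59 and 9.35 CPM in DE TAC. The DE sham hearts stood above the 9 other hearts, which lay between 7.76 and 11.8 CPM. The interaction was -1.22 ± 0.33 (-1.91 to -0.53, unadjusted p = 0.00145, edgeR), with a difference between exposures of 0.88 ± 0.24 in sham hearts and -0.34 ± 0.24 in TAC hearts.

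Acot1, a cytosolic acyl-CoA thioesterase and a target of PPAR-alpha, stood at 8.36, 7.63 and 6.81 CPM in FA sham, 3.57, 2.51 and 6.45 in FA TAC, 12.6, 8.36 and 8.08 in DE sham and 1.23, 1.90 and 1.69 CPM in DE TAC. Sham and TAC hearts were separate in both exposures, with the lowest 3 values in DE TAC. Its interaction was -1.74 ± 0.54 (unadjusted p = 0.00379, edgeR). The mitochondrial relative Acot2 stood at 91.2, 72.5 and 75.6 CPM in FA sham, 45.8, 43.4 and 65.1 in FA TAC, 64.9, 84.1 and 90.6 in DE sham and 28.3, 35.7 and 34.9 CPM in DE TAC. Its sham and TAC hearts were also separate in both exposures, and DE TAC hearts were again the lowest 3, with an interaction of -0.64 ± 0.27 (unadjusted p = 0.0265, edgeR). The 2 genes are close copies, so reads may be shared between them.

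Enho, which encodes the peptide adropin, had -1.97 ± 0.55, with TAC hearts above sham hearts in filtered air and below them after diesel exhaust. Kcna2, a voltage-gated potassium channel, had -3.19 ± 0.84 at 0.635 to 5.77 CPM. Magoh, of the exon junction complex, had -1.30 ± 0.41, and Vars2, the mitochondrial valyl-tRNA synthetase, -1.06 ± 0.36. Msantd4 had -0.85 ± 0.25 and 2810410L24Rik had -2.67 ± 0.86.

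**Figure D4:**
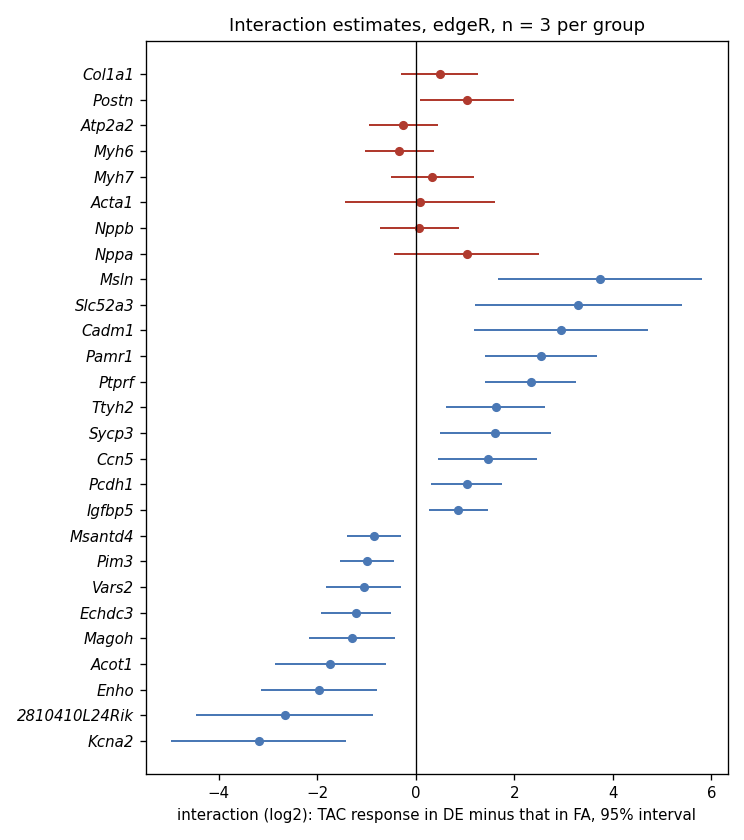
Interaction estimate (log2) with its 95% confidence interval from edgeR for genes with the smallest p-values in either direction (blue) and for 8 hallmark genes of pressure overload (red). The blue genes were ordered by the same p, so their intervals lie off 0 by choice, and among the hallmark genes the interval of Postn alone does not include 0.

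The hallmark genes of pressure overload mostly gave intervals that included 0. Nppb, the B-type natriuretic peptide, stood at 90.7, 68.9 and 87.6 CPM in FA sham, 294, 430.4 and 345 in FA TAC, 72.8, 130.04 and 75.9 in DE sham and 268, 433 and 563 CPM in DE TAC. The TAC groups overlapped each other and lay above all sham hearts. Nppb rose by 2.11 ± 0.27 in filtered air (edgeR adjusted p = 0.000563) and by 2.18 ± 0.27 after diesel exhaust (adjusted p = 0.00017). Its interaction was 0.07 ± 0.37, with an interval of -0.70 to 0.85, and with 1 library left out it ran from -0.19 to 0.39.

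Nppa, the atrial natriuretic peptide, stood at 56.8, 105 and 46.4 CPM in FA sham, 687, 976 and 415 in FA TAC, 46.9, 83.7 and 42.7 in DE sham and 724, 1100 and 1712 CPM in DE TAC. The TAC groups overlapped, with the highest value in a DE TAC heart. The interaction was 1.03 ± 0.65 (-0.42 to 2.49, unadjusted p = 0.144, edgeR). It was 0.60 without FA sham replicate 2 and 0.67 without DE TAC replicate 3, and 1.52 without both sham libraries that stood apart.

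Acta1, skeletal alpha-actin, stood at 349, 108 and 85.3 CPM in FA sham, 2975, 2845 and 1754 in FA TAC, 281, 234 and 189 in DE sham and 2765, 4013 and 3565 CPM in DE TAC. Its interaction was 0.07 ± 0.67 (-1.43 to 1.58). FA sham replicate 1, at 349 CPM, stood far above the other FA sham hearts, and without it the estimate was -0.84 with an unadjusted p of 0.0233 by edgeR. The estimate was negative in 7 of the 22 alternatives, 5 of which kept that library, so no direction is given for Acta1.

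Myh7, the beta myosin heavy chain, stood at 1172, 880.4 and 828 CPM in FA sham, 1589, 1267 and 3285 in FA TAC, 1185, 973 and 825 in DE sham and 2434, 3115 and 2463 CPM in DE TAC. FA TAC replicate 3 was far above the other FA TAC hearts and within the range of DE TAC. The interaction was 0.33 ± 0.39 (-0.49 to 1.16, unadjusted p = 0.406, edgeR), and without that library 0.85 with an unadjusted p of 0.0117. Without FA TAC replicate 2 it was 0.08 (unadjusted p = 0.818, edgeR), and 0.16 and 0.17 without FA sham replicate 1 and FA TAC replicate 1. The adult myosin Myh6 had -0.33 ± 0.33 (-1.02 to 0.35) and the calcium pump gene Atp2a2 -0.26 ± 0.33 (-0.93 to 0.42), which were -0.09 and 0.02 without FA TAC replicate 1. Over the fetal and hypertrophic gene list, 0 of 23 tested genes had an unadjusted p under 0.05, and the median estimate was 0.10.

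Most matrix genes had a positive interaction estimate, and none passed the adjusted threshold. Of 55 matrix and fibrosis genes 53 were tested. In 45 of them the estimate was positive, and the median was 0.25, beside a median of -0.02 and 6545 of 13626 positive over all genes. Among the 95 genes called for TAC in both exposures, some of them matrix genes, 69 rose and 26 fell. Their median interaction was 0.22 in those that rose and -0.20 in those that fell. With TAC, 29 of the 53 were called higher in filtered air at an edgeR adjusted p under 0.05, beside 0.609% of all genes, and 46 after diesel exhaust, beside 1.75%. The median responses were 1.37 and 1.86. Of the 53, 5 had an unadjusted interaction p under 0.05 and a positive estimate, against 1.31% of all genes, and 0 a negative one. These were Col14a1, Tgfb2, Col6a1, Postn and Bgn.

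Postn, periostin of activated fibroblasts, stood at 39.0, 38.3 and 52.1 CPM in FA sham, 254, 533 and 208 in FA TAC, 40.3, 27.2 and 39.1 in DE sham and 593, 431 and 675 CPM in DE TAC. Sham hearts of both exposures overlapped, and FA TAC replicate 2 lay within the range of DE TAC. The interaction was 1.05 ± 0.43 (0.11 to 1.98, unadjusted p = 0.0309, edgeR), and 1.57 without FA TAC replicate 2, with an adjusted p of 0.291. Without both sham libraries that stood apart it was 0.96 with an unadjusted p of 0.0926, and the unadjusted p was under 0.05 in 15 of 22 alternatives.

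Col14a1, a collagen that associates with fibrils, stood at 17.3, 17.3 and 20.3 CPM in FA sham, 37.4, 51.0 and 27.2 in FA TAC, 14.6, 18.7 and 12.0 in DE sham and 61.9, 40.8 and 71.0 CPM in DE TAC. The TAC groups overlapped through FA TAC replicate 2 and DE TAC replicate 2. Its interaction was 0.87 ± 0.34 (unadjusted p = 0.0192, edgeR). The ligand gene Tgfb2 had 1.02 ± 0.42, the microfibrillar collagen Col6a1 0.67 ± 0.28 and the proteoglycan biglycan, Bgn, 0.67 ± 0.29. The main fibrillar collagen Col1a1 had 0.48 ± 0.36 (-0.28 to 1.24, unadjusted p = 0.2), at 175, 222 and 113 CPM in FA TAC and 261, 223 and 295 CPM in DE TAC. Its estimate ran from 0.26 without FA TAC replicate 3 to 0.87 without DE sham replicate 2 (unadjusted p = 0.00921, edgeR). Ltbp2, a binding protein of the elastic fibre, had 1.21 ± 0.59 and Lum, lumican, 0.49 ± 0.32, both with intervals that included 0.

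The matrix median moved with single libraries. It was 0.59 without FA TAC replicate 2, 0.13 without FA TAC replicate 3, 0.43 without DE sham replicate 2, 0.37 without DE TAC replicate 2 and 0.58 without both sham libraries that stood apart, and it was positive in all 23 settings tried. FA TAC replicate 2 carried the highest summed matrix level of its group, which ran from 4865 to 8226 CPM, beside 7249 to 9468 CPM in DE TAC, 2458 to 2731 in FA sham and 2328 to 3152 CPM in DE sham. Of 19 fibroblast markers, 15 had a positive estimate with a median of 0.19, and their summed level was 2434 to 3662 CPM in FA TAC and 3315 to 3677 CPM in DE TAC. The fibroblast median ran from 0.04, with 10 positive, without FA sham replicate 2, to 0.33 without FA TAC replicate 2. The list shares Col1a1, Col1a2, Col3a1, Dcn, Lum and Mfap5 with the matrix list. The part of fibroblast number in the matrix values was not tested.

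Other secreted and growth factor genes gave smaller sets. Of 32 secreted proteins with CUB, EGF or sushi domains 19 were tested, and 15 had a positive estimate. The median over the 19 was 0.28, beside -0.02 over all genes. Of the 19, 2 had an unadjusted p under 0.05 and a positive estimate, Pamr1 and Svep1, beside 1.31% of all genes. The list was chosen with earlier results of these data known. Svep1, a large adhesion protein of the matrix, rose in both exposures and had an interaction of 0.69 ± 0.32. In the TGF-beta and BMP list 22 of 29 were positive, with a median of 0.14. Tgfb2 was the 1 gene of the 29 with an unadjusted p under 0.05, beside 2.4% of all genes. In the Wnt list 14 of 25 were positive and 0 had such a p.

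Most genes of fatty acid uptake and oxidation had a negative estimate. All 35 were tested, 33 had a negative estimate, and the median was -0.24, beside -0.02 over all genes. The 26 genes that fell and were called for TAC in both exposures had a median of -0.20. With TAC, 1 of the 35 was called lower in filtered air at an edgeR adjusted p under 0.05, beside 0.22% of all genes, and 11 after diesel exhaust, beside 1.49%. The median responses were -0.35 and -0.68. Of the 35, 2 (Acot1 and Acot2) had an unadjusted interaction p under 0.05 and a negative estimate, against 1.09% of all genes. The mitochondrial uncoupling protein gene Ucp3 had -1.21 ± 0.67, the pyruvate dehydrogenase kinase gene Pdk4 -0.74 ± 0.58, and the regulator Ppara -0.33 ± 0.28. The fatty acid transporter gene Cd36 had -0.16 ± 0.26, and Cpt1b, which brings fatty acids into mitochondria, -0.15 ± 0.40. The list's median was negative in all 23 settings, between -0.32 and -0.16. The summed level was 9656 to 11404 CPM in FA TAC and 7987 to 9082 CPM in DE TAC, without overlap, and 12494 to 13314 in FA sham and 12223 to 13155 CPM in DE sham, with overlap.

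Most cardiomyocyte markers also had a negative estimate. Of 16 ventricular cardiomyocyte markers 15 were negative, with a median of -0.18 and 0 at an unadjusted p under 0.05. Their summed level was 50435 to 78131 CPM in FA TAC and 49686 to 61222 CPM in DE TAC. In the contraction and calcium list 24 of 27 were negative (median -0.13), in glycolysis 21 of 27 (median -0.15), and in nuclear-encoded oxidative phosphorylation 35 of 48 (median -0.14), each with 0 at an unadjusted p under 0.05. In ion channels 21 of 32 were negative, with a median of -0.17. Over the 23 settings the medians stayed below 0 and ran from -0.29 to -0.08 for the markers, -0.26 to -0.05 for contraction, -0.28 to -0.02 for glycolysis, -0.21 to -0.08 for oxidative phosphorylation and -0.31 to -0.003 for ion channels. The values closest to 0 came without DE TAC replicate 3 for oxidative phosphorylation and without FA TAC replicate 1 for the rest. How far a change in the share of cardiomyocyte RNA moves with the fatty acid values was not tested. Mitochondrially encoded messenger RNAs had a median of 0.22, which was -0.01 without DE sham replicate 2, the library with the lowest mitochondrial share.

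**Figure D5:**
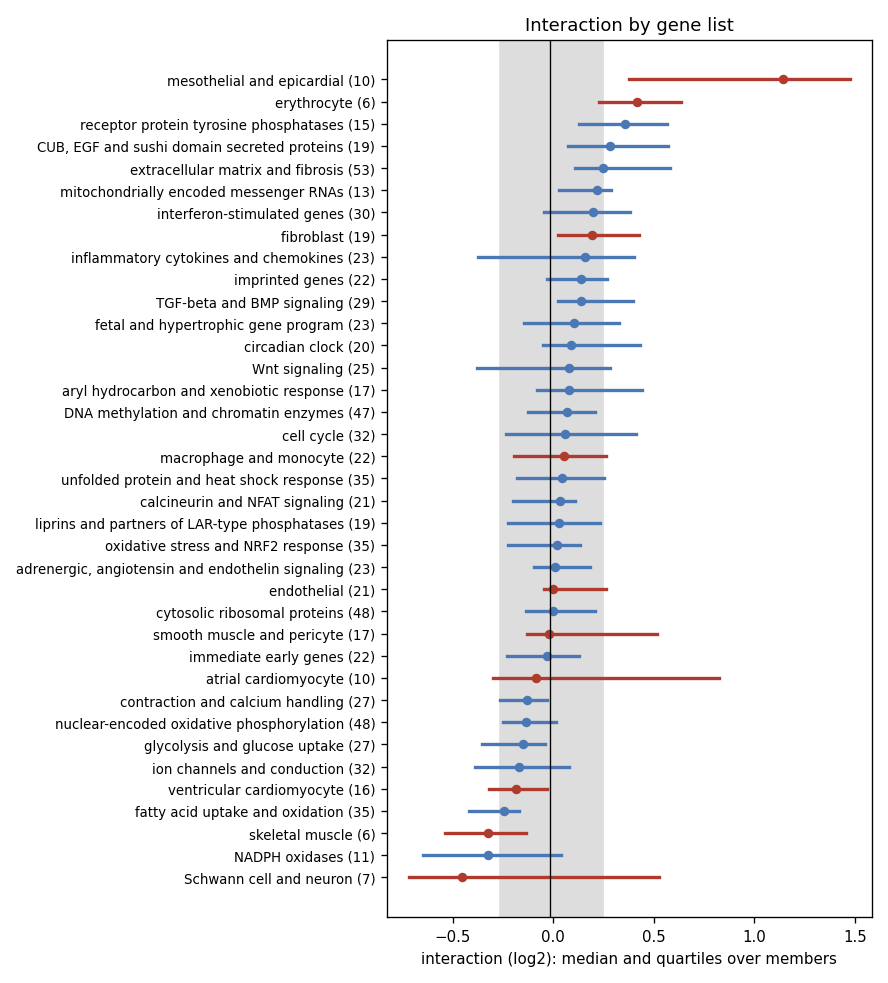
Median interaction estimate (point) and quartiles (line) over the tested members of each gene list with at least 5 tested members, with the number tested in parentheses, functional lists in blue and cell type markers in red. The grey band runs from the lower to the upper quartile of all 13626 genes, and the black line marks their median of -0.02. The median of matrix genes lies above that line at 0.25 and that of fatty acid genes below it at -0.24, both inside the grey band.

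Signaling lists of the hypertrophic response stayed near the median of all genes. Calcineurin and NFAT genes had a median of 0.04 with 0 of 21 at an unadjusted p under 0.05. Adrenergic, angiotensin and endothelin genes had a median of 0.01 with 2 of 23, both negative, beside 1.09% of all genes. The alpha-1B adrenergic receptor gene Adra1b stood at 23.7, 21.9 and 20.1 CPM in FA sham, 14.4, 6.64 and 9.32 in FA TAC, 29.1, 22.4 and 18.2 in DE sham and 6.53, 6.14 and 4.97 CPM in DE TAC. Every DE TAC heart lay below every FA TAC heart, and the sham groups overlapped. Its interaction was -0.87 ± 0.38 (unadjusted p = 0.034, edgeR), and that of the apelin gene Apln was -1.04 ± 0.49.

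In lists chosen for the exposure, single genes had an unadjusted p under 0.05. In the aryl hydrocarbon and xenobiotic list 1 of 17 genes had a positive and 1 a negative estimate at such a p, beside 2.4% of all genes, with a median of 0.08. Tiparp, a target of the aryl hydrocarbon receptor that adds ADP-ribose, stood at 11.7, 16.2 and 13.8 CPM in FA sham, 17.0, 14.3 and 15.1 in FA TAC, 6.64, 7.35 and 9.09 in DE sham and 17.1, 14.1 and 13.7 CPM in DE TAC. The DE sham hearts lay below the 9 others. Its interaction was 0.81 ± 0.34 (unadjusted p = 0.0269, edgeR), with a difference between exposures of -0.85 ± 0.25 in sham hearts and -0.04 ± 0.23 in TAC hearts. The negative gene was Cyp2j6, a cytochrome P450, at -1.27 ± 0.60.

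In the oxidative stress and NRF2 list 2 of 35 were positive and 1 negative at an unadjusted p under 0.05. The shares over all genes were 1.31% and 1.09%, and the median of the list was 0.02. Gpx3, a secreted glutathione peroxidase, had 0.64 ± 0.26 and the glutathione transferase gene Gsta3 2.0 ± 0.81. The NRF2 target Nqo1 had 0.05 ± 0.26 and the heme oxygenase gene Hmox1 -0.39 ± 0.50. DNA methylation and chromatin enzymes had 0 of 47 at an unadjusted p under 0.05 and a median of 0.07. Imprinted genes had 1 of 22, beside 2.4% of all genes. This was Airn (1.02 ± 0.45), whose locus overlaps Igf2r, so that reads of these genes cannot be told apart without strand.

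Immune and proliferation lists differed in their medians. Inflammatory cytokines and chemokines had 14 of 23 positive and a median of 0.16, which ran from -0.19 without FA sham replicate 2 to 0.38 without both sham libraries that stood apart. The chemokine gene Ccl8 was the 1 gene of the 23 with an unadjusted interaction p under 0.05, beside 2.4% of all genes. Its unadjusted p was 0.0151 by edgeR. It stood at 0.741, 0.294 and 0.487 CPM in FA sham, 0.119, 1.25 and 0.478 in FA TAC, 0.128, 0 and 0 in DE sham and 1.67, 1.56 and 0.895 CPM in DE TAC. The DE sham hearts lay under the floor, so no fold is given. Macrophage and monocyte markers had a median of 0.05 with 11 of 22 positive, and endothelial markers a median of 0.00 with 11 of 21. At an unadjusted p under 0.05, 1 interferon-stimulated gene was positive and 2 were negative, beside 1.31% and 1.09% of all genes. Of 30 such genes tested 22 were positive, with a median of 0.20, beside -0.02 over all genes. That median ran from 0.01, with 15 positive, without FA TAC replicate 1, to 0.33 without both sham libraries that stood apart. The 2 negative ones at an unadjusted p under 0.05 were the RNA sensor gene Ddx58, at -0.91 ± 0.35, and Xaf1, at -1.25 ± 0.55. In the cell cycle list Mki67, a marker of dividing cells, was the 1 of 32 with such a p, beside 2.4% of all genes. It stood at 9.42, 9.40 and 8.44 CPM in FA sham, 7.86, 17.9 and 11.5 in FA TAC, 8.17, 8.86 and 7.36 in DE sham and 20.4, 18.3 and 21.8 CPM in DE TAC. The DE TAC hearts were the highest 3, and the interaction was 0.86 ± 0.39 (unadjusted p = 0.0363, edgeR).

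No interaction gene was called in the lists of circadian clock, unfolded protein and heat shock, cytosolic ribosomal protein or immediate early genes. In the clock list 1 of 20 had an unadjusted p under 0.05, Npas2 at 1.87 ± 0.84, beside 2.4% of all genes. The others, in that order, had 0 of 35 (median 0.04), 0 of 48 (median 0.00) and 0 of 22 (median -0.03). Erythrocyte genes were positive in 6 of 6 tested, with a median of 0.42, but in 3 with a median of 0.08 by voom with sample weights and in 4 with 0.10 without DE TAC replicate 1. Hba-a1, an alpha-globin with a near-identical copy in Hba-a2, had 0.66 ± 0.26. Their summed level overlapped between all 4 groups, at 344 to 668 CPM.

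Some genes passed the TAC threshold in 1 exposure and had few counts in the sham hearts of that exposure, so their levels are given in place of a fold. Nox4, a NADPH oxidase that makes hydrogen peroxide, stood at 1.69, 0.440 and 1.62 CPM in FA sham, 0.953, 12.8 and 6.57 in FA TAC, 0.128, 0.167 and 0 in DE sham and 8.12, 6.81 and 7.46 CPM in DE TAC. All DE sham hearts lay under the floor, and DE TAC hearts lay within the range of FA TAC hearts. The unadjusted interaction p of Nox4 was 0.0109 by edgeR. Itih2 and Tbx15 likewise were called after diesel exhaust only, with unadjusted interaction p-values of 0.0225 and 0.0449, and Serpinb1c, listed at 0 in every DE sham heart, had 0.0684.

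Sphk1, which makes sphingosine 1-phosphate, showed the opposite order. It stood at 0, 0.440 and 0.162 CPM in FA sham, 4.53, 1.75 and 2.03 in FA TAC, 1.02, 1.00 and 0.577 in DE sham and 1.74, 1.00 and 1.69 CPM in DE TAC. FA sham hearts were at or under the floor and FA TAC hearts were the highest 3. The unadjusted interaction p was 0.0166 by edgeR. The proton-sensing receptor gene Gpr65 stood at 0, 0.587 and 0.811 CPM in FA sham and 4.05, 5.01 and 2.75 in FA TAC. It stood at 1.53, 0.836 and 1.59 CPM in DE sham and 1.45, 2.57 and 2.88 in DE TAC. The macrophage gene Ms4a7 stood at 0.423, 0.294 and 0.649 CPM in FA sham and 2.62, 4.89 and 1.91 in FA TAC. It stood at 0.766, 2.51 and 2.89 CPM in DE sham and 4.06, 3.46 and 2.98 in DE TAC. Both reached the floor in FA sham. Both were called in filtered air only, as was Ankrd45, which had -1.58 ± 0.70 at 0.734 to 1.14 CPM in FA sham. Adamts12, a secreted metalloprotease named after its values were seen, had -1.57 ± 0.61.

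The interaction can also be read as the exposure difference in TAC hearts minus that in sham hearts. By edgeR, 0 of 13626 genes passed for DE against FA in sham hearts (0.0%), with 503 (3.69%) at an unadjusted p under 0.05, and DESeq2 and both voom fits also called 0. In TAC hearts 0 passed (0.0%), with 255 (1.87%) unadjusted, and DESeq2 called 1, Ptprf, with an adjusted p of 0.00503, while both voom fits called 0. The unadjusted shares, 3.69% and 1.87%, are also below the share of 0.05 that evenly spread p-values would give. In 15 genes (0.11%) every DE heart lay below every FA heart in sham animals and above in TAC animals, among them Ptprf and Pamr1. In 17 genes (0.125%) the order was the reverse, among them Echdc3 and Enho.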

How the data were processed

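Gene expression was measured by sequencing of ribosome-depleted total RNA from 12 mouse hearts, on an Ion semiconductor platform per the labels' protocols. The authors deposited a table of raw counts with 1 row per Entrez gene. Per the submitters' processing notes, cutadapt 1.6, Subread 1.4.2, featureCounts and the build mm10 were used. The strand, multimapping and annotation settings used for counting were not given in the sources used here. Each of the 12 columns was matched to its sample by the animal number in the title, and no pair of columns was identical. Symbols came from RefSeq (GRCm38.p6) for 25275 genes and GENCODE M21 for 18, and 1886 genes without a symbol held 4.19% of counts. Symbols of lists that have since been renamed were matched by gene number.

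The analysis used R 4.3.3 and edgeR 4.0.16 with TMM factors, filterByExpr with a count minimum of 10, a robust quasi-likelihood fit with 1 mean per group over all 12 libraries (8 residual degrees of freedom) and two-sided tests. Benjamini-Hochberg adjustment ran over all 13626 genes tested, with a threshold of 0.05. Levels in CPM are the deposited counts scaled here by total and TMM factor. The SE was derived from the estimate and its F value. The script was tested on simulated data. Alternatives were other normalizations, filters, DESeq2 1.42.0, voom of limma 3.58.1 with and without sample weights, mitochondrial genes left out, and each library left out in turn. PCR duplicates cannot be told apart from separate molecules, so floors cover counting error only.

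Genes were named by a rule: the 10 positive and 10 negative with the smallest p and a mean of at least 1 CPM, 8 hallmark genes, the 2 members of each list with the smallest p, the 5 greatest estimates in each direction among genes called for TAC in exactly 1 exposure, and genes called by another tool alone. Further members of the lists are named for their role. Some genes that the rule takes are not reported here. The gene lists and this rule were chosen with earlier results of these data known. Lists are described by counts and medians with no test.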

Additional observations from a re-analysis of the deposited data

Results flagged for a closer look

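Ptprf differed between exposures in its response to TAC by DESeq2, with an interaction of 2.34 on the log2 scale and an adjusted p of 0.00283. By edgeR the estimate was 2.33 and the adjusted p 0.336, so the gene is past the threshold with 1 of the 4 methods run. All 3 FA TAC hearts lay below all FA sham hearts and all 3 DE TAC hearts above all DE sham hearts.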

How the results depend on the processing

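The interaction called 0 genes by edgeR and also with each of the 12 libraries left out (range 0 to 0), but 1 without the filter on low counts and 1 by DESeq2. The gene without the filter was Capn11 (adjusted p = 0.0218 by edgeR), which had 23, 4 and 4 counts in FA sham, 0 in every FA TAC and DE sham heart, and 0, 16 and 19 in DE TAC. TAC in filtered air called 113 genes, and 247 without the filter, 258 by DESeq2 and 188 by voom with sample weights, with 39 to 143 when 1 library was left out, the lowest without FA TAC replicate 2. TAC after diesel exhaust called 442, and 676 by DESeq2 and 795 by voom with sample weights, with 188 to 530 when 1 library was left out, the lowest without DE TAC replicate 3. DE against FA in TAC hearts called 1 gene without the filter (Serpina1c) and 1 by DESeq2 (Ptprf). The cause of these shifts was not tested.

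Of 36 genes followed, 33 kept their sign in every alternative, and 13 of 785 estimates reversed. With 1 library left out, Atp2a2 ran from -0.45 to 0.022, Nppb from -0.19 to 0.39 and Acta1 from -0.84 to 0.40. Atp2a2 was positive without FA TAC replicate 1. Nppb was -0.01, -0.06, -0.08, -0.06 and -0.19 without FA sham replicate 1, FA TAC replicate 1, DE sham replicates 1 and 3 and DE TAC replicate 3. Acta1 was -0.16 by voom, -0.23 by voom with sample weights, -0.84 without FA sham replicate 1, -0.13 without FA TAC replicate 3, -0.07 without DE sham replicate 3, -0.05 without DE TAC replicate 2 and -0.83 without both sham libraries that stood apart, an alternative chosen after seeing the data. The cause was not tested.

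No paired analysis was possible because each heart has an animal number of its own and replicate numbers follow accession order only. With 3 hearts a group, 39.2% of genes had an interval within 2-fold, and for genes under 10 CPM differences of that size were mostly not detectable at this depth. Litter and run could not be added as terms. Sex is not given either, but all 12 libraries had Y-linked counts, at a summed 70.4 to 147 CPM, and Xist at 0 to 2.92 CPM. These genes thus show no difference of sex between libraries.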
